A study of Rattus norvegicus with 10 samples.

Results

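The nuclear genes of mitochondrial ribosomal proteins were followed through the hippocampal RNA of 10 transgenic rats. Members were the gene symbols of the deposited count table that start with Mrpl or Mrps followed by a digit, with the lines of a symbol summed. This gave 71 of 13686 symbols, 43 named Mrpl and 28 named Mrps. By the structure of the mammalian mitoribosome, 45 of them belong to the large subunit and 25 to the small subunit. Mrps18a and Mrps30 carry small-subunit names but sit in the large subunit. Mrps36 carries a ribosomal name but is a component of the ketoglutarate dehydrogenase complex, so it was counted as a member and kept out of both subunits. The subunit genes Mrpl9, Mrpl11, Mrpl24, Mrpl28, Mrpl33, Mrpl39 and Mrps6 were not analysed here.

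The mitochondrial ribosome translates the few mRNAs of the mitochondrial genome, all of which encode subunits of the oxidative phosphorylation complexes. Its ribosomal RNAs come from the mitochondrial genome, whereas every one of its proteins is encoded in the nucleus, made on cytosolic ribosomes and imported. Part of these proteins have counterparts in bacterial ribosomes and part are specific to mitochondria. Neurons rely heavily on oxidative phosphorylation, and inherited defects of mitoribosomal proteins can affect the brain.

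RNA came from the left hippocampus of male TgF-344AD rats, which are transgenic and serve as a rat model of Alzheimer disease. In the untreated group 5 rats ate rodent chow, and in the other group 5 rats ate chow with BT-11, a compound known as a ligand of LANCL2, which they began at 5 months of age and received for 6 months. Sampling took place at 11 months, and ketamine, xylazine and perfusion with cold saline are listed for both groups. Both groups are transgenic, and rats without the transgenes were not analysed here. Each library had 8984439 to 11301545 counts, of which the members took 0.199% to 0.243%. All 71 members passed the filter on low counts, with counts from 16 upward in every library, among 11771 genes tested.

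Markers of hippocampal pyramidal and granule neurons were detected in every library, with summed levels of 858 to 1279 CPM (counts scaled by the library total) in untreated and 893 to 1530 CPM in BT-11 rats. Of the 8 that passed the filter on low counts, 7 had a log2 fold change above 0 with BT-11 (median 0.24). Choroid plexus transcripts, which come from outside the hippocampus, stood at 3837 CPM in untreated 2 and 740 CPM in untreated 5. They lay at 21.4 to 81.3 CPM in the other untreated libraries and at 21.1 to 44.0 CPM with BT-11, and none of the 12 markers was at 0 throughout. Of these markers 7 passed the filter, and all 7 had a log2 fold change below 0 with BT-11. Meningeal markers were also highest in untreated 2 (479 CPM) and untreated 5 (187 CPM), against 67.0 to 95.3 CPM with BT-11. Myelin markers summed to 8192 to 16379 CPM in untreated and 8595 to 15457 CPM in BT-11 rats, and 10 of 10 had a log2 fold change above 0 (median 0.18). The BT-11 fold changes, the differences by replicate number and their interaction are therefore given with and without untreated 2 and 5. Pan-neuronal markers summed to 12042 to 14401 CPM in untreated and 10145 to 12484 CPM in BT-11 rats, and 12 of 13 had a log2 fold change below 0 (median -0.17). Astrocyte markers summed to 8564 to 9827 CPM and 8255 to 9266 CPM, with 9 of 10 below 0 (median -0.15).

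Promoter sequence was available for 56 of the 71 members, from RefSeq in the rat build GRCr8, each with 250 bases before and 50 bases after the listed start of the gene. The entries not matched were Mrpl13, Mrpl15, Mrpl16, Mrpl19, Mrpl21, Mrpl35, Mrpl38, Mrpl43, Mrps12, Mrps22, Mrps24, Mrps28, Mrps34, Mrps35 and Mrps36. The transcription factors NRF1, GABP (an ETS factor) and YY1 are known as activators of nuclear genes for mitochondrial proteins. Their core letters were searched on both strands, as GCGCA followed by its reverse complement for NRF1, CCGGAAG for GABP and AAGATGGC for YY1. The end of CCGGAAG and the start of AAGATGGC share the letters AAG, so these motifs can overlap. The promoters below are those of Mrpl45 and Mrpl27, which had the smallest p-values with BT-11, of Mrpl46, which starts back to back with another member, and of Mrps18b, which holds all 3 motifs. Capitals mark a motif on either strand.
Mrpl45 (chr10:82804789-82805088, plus strand): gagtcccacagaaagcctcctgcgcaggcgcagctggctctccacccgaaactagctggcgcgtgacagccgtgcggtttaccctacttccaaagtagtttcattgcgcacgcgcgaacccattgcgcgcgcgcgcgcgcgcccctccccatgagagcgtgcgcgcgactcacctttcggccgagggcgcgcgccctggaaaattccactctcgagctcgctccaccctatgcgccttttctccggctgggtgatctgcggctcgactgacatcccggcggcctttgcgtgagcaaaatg
Mrpl27 (chr10:80092095-80092394, plus strand): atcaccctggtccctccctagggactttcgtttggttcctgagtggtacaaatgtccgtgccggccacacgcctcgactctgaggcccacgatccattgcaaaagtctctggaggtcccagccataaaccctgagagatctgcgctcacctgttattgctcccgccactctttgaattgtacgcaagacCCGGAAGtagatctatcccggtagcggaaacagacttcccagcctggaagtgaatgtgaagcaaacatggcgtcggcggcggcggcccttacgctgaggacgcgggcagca
Mrpl46 (chr1:142116981-142117280, minus strand): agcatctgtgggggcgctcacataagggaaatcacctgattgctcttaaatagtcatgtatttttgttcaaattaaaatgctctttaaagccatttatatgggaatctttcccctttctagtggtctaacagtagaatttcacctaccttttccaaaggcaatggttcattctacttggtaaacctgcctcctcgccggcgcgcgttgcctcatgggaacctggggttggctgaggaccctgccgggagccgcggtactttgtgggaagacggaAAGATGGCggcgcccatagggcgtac
Mrps18b (chr20:2842756-2843055, plus strand): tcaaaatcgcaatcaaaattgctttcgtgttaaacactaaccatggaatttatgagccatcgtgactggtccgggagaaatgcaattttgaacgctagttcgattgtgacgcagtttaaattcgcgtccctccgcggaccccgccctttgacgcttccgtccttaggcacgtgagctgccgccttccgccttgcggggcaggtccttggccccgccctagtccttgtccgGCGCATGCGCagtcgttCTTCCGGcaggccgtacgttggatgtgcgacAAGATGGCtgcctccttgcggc

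The Mrpl45 window held none of the 3 motifs in their exact letters. With the 2 middle letters of the NRF1 motif left free it did hold a match, which is not in capitals above. The Mrpl27 window held CCGGAAG upstream of the start. In Mrpl46 and Mrps18b, AAGATGGC lay within the last 50 bases, after the listed start. In Mrps18b the ETS letters were on the opposite strand and read CTTCCGG. Across the 56 promoters, CCGGAAG was found in 19 (33.9%), against 17.2% of the 9331 promoters of tested genes and 9.21% of all 27457 promoters in the table. AAGATGGC was found in 14 (25%), against 5.44% of tested genes and 3.41% of all promoters. The NRF1 palindrome was found in 4 (7.14%), namely Mrpl17, Mrpl32, Mrpl44 and Mrps18b, against 1.88% and 0.936%. With the 2 middle letters left free, that motif was in 10 promoters (17.9%), against 12.8% of tested genes. These are matches of letters and were not set against binding data.

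Promoters of nuclear-encoded oxidative phosphorylation subunits had shares close to these, with CCGGAAG in 30.3% and AAGATGGC in 21.2% of 66 promoters. Promoters of cytosolic ribosomal protein genes held CCGGAAG in 31.2% but AAGATGGC in 6.25% of 64. Another gene started on the opposite strand within 1000 bases for 18 of the 56 members (32.1%), against 15.5% of tested genes and 31.8% of oxidative phosphorylation genes. Mrpl46 and Mrps11 started 234 bases apart, so a pair of members shares 1 intergenic region. Mrpl47 neighbours Ndufb5, which encodes a subunit of complex I, at 244 bases, and Mrpl27 neighbours the endonuclease gene Eme1 at 44 bases. Members with and without any of the motifs had median levels of 28.4 and 25.7 CPM per kilobase of transcript. Their median log2 fold changes with BT-11 were -0.051 and -0.11.

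Per kilobase of transcript, the members spanned from 3.94 to 86.9 CPM in the mean of the 10 libraries, with a median of 26.1. Mrps21, a small-subunit protein with a bacterial counterpart, stood highest at 86.9 ± 8.63 CPM per kilobase (SD, n = 10). Mrpl17, of the large subunit, followed at 72.1 ± 3.88, and Mrpl54, a large-subunit protein specific to mitochondria, at 71.4 ± 11.2. The levels of Mrpl17 and Mrpl54 were closer to each other than their spread over libraries. At the low end, Mrpl47 stood at 10.0 ± 0.757, Mrps35 at 8.997 ± 0.858 and Mrps28, which is related to bacterial ribosomal protein S1, at 3.94 ± 1.07 CPM per kilobase. Mrps28 was represented by 16 to 37 counts per library, so its values carry more counting error than those of the other members.

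Within a treatment group, levels of the members varied less in the median than those of all genes tested, which were not matched to them by level. The within-group SD of log2 CPM had a median of 0.136 over the members, against 0.179 over all genes tested. It was lowest for Mrpl3 (0.073) and highest for Mrps28 (0.317).

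**Figure D1:**
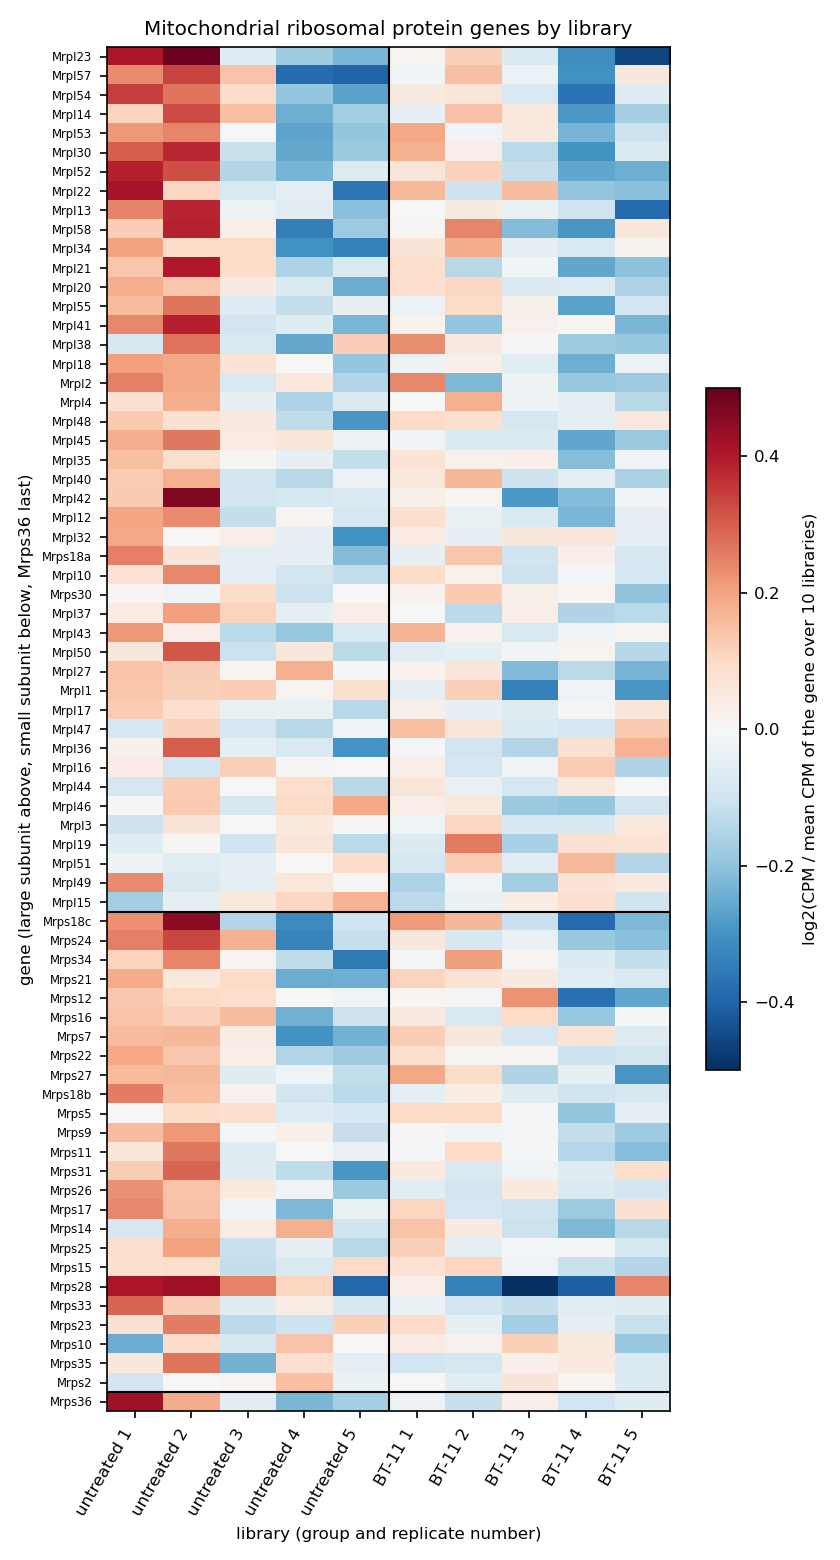
Level of each of the 71 members (rows) in each of the 10 libraries (columns), as log2 of the CPM over the mean CPM of that gene. The colour scale ends at 0.5 in either direction, which 1 value exceeds. Untreated 1 and 2 are red in most rows, and the libraries numbered 4 and 5 are blue in most rows of both groups.

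The members were read from 80 lines of the count table on 17 chromosomes, since 8 symbols had more than 1 line. Mrpl14, Mrpl17, Mrps21 and Mrps27 had several gene models at 1 locus, which were summed. Mrpl30, Mrpl36 and Mrpl53 each had lines at separate places that carried the same values, so reads had been divided evenly between copies. For Mrpl1, which forms the mobile L1 stalk, the counts were split unevenly. Its line on chromosome 14 (build rn6, 14951507 to 15008137 as listed, minus strand) held 5.43 to 48.0 counts. Its line on chromosome 8 (56411903 to 56502077, plus strand) held 73.3 to 152 counts. The sequences of these copies were not compared, and how reads were assigned between them is not known here. The levels of Mrpl1, Mrpl30, Mrpl36 and Mrpl53 are uncertain for that reason.

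The design asks which genes differ between BT-11 and untreated rats. No member did at an adjusted p of 0.05, while most members lay slightly lower with BT-11. Summed over the members, the untreated libraries 1 to 5 held 2362, 2427, 2141, 2050 and 1995 CPM. The BT-11 libraries 1 to 5 held 2214, 2191, 2085, 2018 and 2027 CPM. Untreated 1 and 2 were the highest of all 10, untreated 5 was the lowest, and untreated 3 and 4 lay among the BT-11 values. The group means were 2195 ± 191 and 2107 ± 91.2 CPM (SD, n = 5 each), a log2 ratio of -0.059, which is smaller than the spread between untreated rats. In tissue RNA, fewer cells of a type and less RNA per cell cannot be told apart.

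Of the 71 members, 61 (85.9%) had a log2 fold change below 0, where 51.8% of all genes tested did. The median over the members was -0.069, against -0.0065 over all genes, and the values ran from -0.40 for Mrps28 to 0.072 for Mrpl19. Both subunits lay on the same side, with 39 of 45 large-subunit members (median -0.063) and 21 of 25 small-subunit members (median -0.074) below 0. Among members with bacterial counterparts, the medians were -0.066 in the large and -0.074 in the small subunit. Among mitochondria-specific members, they were -0.057 and -0.075. Mrps36 stood at -0.12 ± 0.122 (SE), close to the ribosomal members. Related groups lay on the same side with all libraries. Below 0 were 74 of 77 oxidative phosphorylation subunits (96.1%, median -0.11) and 74 of 80 tested cytosolic ribosomal protein genes (92.5%, median -0.078). Among the libraries numbered 1 to 3, 76 and 78 of these were below 0. Among those numbered 4 and 5, 48 (median -0.036) and 25 (median 0.039) were. Most pan-neuronal and astrocyte markers given above lay below 0 as well, whereas most myelin and hippocampal neuron markers lay above 0. The part of these cell types in the values of the members was not tested.

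At an adjusted p of 0.05, edgeR's quasi-likelihood test called 0 of 71 members and 0 of all genes (0.0%), and the smallest adjusted p of a member was 0.448. At an unadjusted p of 0.05, 3 members were lower and 0 higher, against 5.05% and 4.04% of all genes. DESeq2 called 0 members among 36 genes (0.306%), with 2 members lower at an unadjusted p of 0.05 (5.11% of all genes). The count of 3 became 1 without untreated 1 or without BT-11 4, 5 without untreated 4 and 6 without untreated 5. In the same order, 873, 849, 1056 and 1133 of all genes had an unadjusted p under 0.05 in either direction, against 1070 with all libraries. Shares of all genes in the lower direction alone are not given for these fits. Their counts are therefore not read as a result about the members. With the replicate numbers split into 1 to 3 and 4 to 5 as a covariate, the count of 3 became 6 (6.16% of all genes). For no member did the libraries of the groups separate fully, which held for 0.544% of all genes with BT-11 below and 0.578% with BT-11 above.

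Mrpl45, a mitochondria-specific protein of the large subunit near the exit of the peptide tunnel, known in human cells to help anchor the ribosome to the inner membrane, had the smallest p. Its gene lies on chromosome 10 of rn6, from 85257876 to 85269807 on the plus strand, and was at 51.2, 54.3, 46.5, 47.1 and 44.3 CPM in untreated rats. It was at 44.7, 43.1, 43.1, 37.7 and 39.8 CPM in BT-11 rats. Only untreated 5 and BT-11 1 overlapped. The log2 fold change was -0.24 ± 0.078 (SE), with a 95% interval from -0.41 to -0.066, and an adjusted p of 0.448 in edgeR.

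Mrpl27, the counterpart of a bacterial protein at the peptidyl transferase centre, lies 44 bases from Eme1 in the sequence above. It was at 37.6, 37.1, 34.3, 38.5 and 33.8 CPM in untreated rats (rn6, chromosome 10, 82375572 to 82381333, plus strand). With BT-11 it was at 34.4, 35.5, 29.2, 31.0 and 29.0 CPM, where libraries 1 and 2 fell in the untreated range. The log2 fold change was -0.20 ± 0.078 (adjusted p = 0.475 in edgeR). Mrpl1 was at 13.6 to 14.8 CPM in untreated and 10.7 to 14.6 CPM in BT-11 rats. BT-11 3 and 5 were its lowest libraries, and its log2 fold change was -0.22 ± 0.099 (adjusted p = 0.548 in edgeR).

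The next members by p on the lower side were Mrpl37 (log2 fold change -0.16), Mrpl46 (-0.15), Mrps33 (-0.15), Mrpl21 (-0.20) and Mrps28 (-0.40). Their 95% intervals all included 0. Mrpl46, a mitochondria-specific large-subunit protein (rn6, chromosome 1, 140469558 to 140477635, minus strand), was at 18.7 to 22.6 CPM in untreated and 17.3 to 20.6 CPM in BT-11 rats. Mrps28 was at 3.71, 3.74, 3.32, 3.01 and 2.12 CPM in untreated and at 2.86, 2.21, 1.55, 2.10 and 3.31 CPM in BT-11 rats. Its groups overlapped widely, and its interval ran from -0.91 to 0.11.

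On the higher side the smallest p was 0.408, for Mrpl47, a large-subunit protein at the tunnel exit. It was at 18.2, 20.9, 18.2, 17.6 and 19.1 CPM in untreated and 21.5, 20.2, 18.4, 18.2 and 21.2 CPM in BT-11 rats, with a log2 fold change of 0.071 ± 0.083 (edgeR). The others named on that side were Mrpl19 (log2 fold change 0.072), Mrpl34 (0.053), Mrpl48 (0.034), Mrpl43 (0.033), Mrps7 (0.032), Mrps21 (0.029) and Mrpl32 (0.020). Each of these values was smaller than its standard error. The 95% interval of Mrpl34 ran from -0.20 to 0.30, so a change of that size in either direction could not be told apart from 0.

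**Figure D2:**
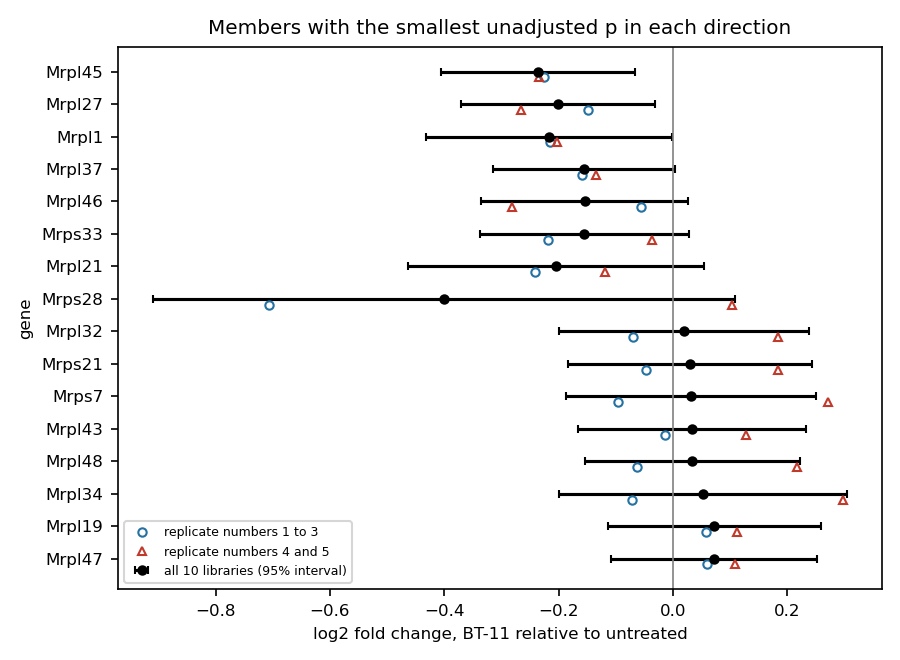
Log2 fold change of BT-11 relative to untreated for the 8 members with the smallest p in each direction (black points, all 10 libraries, bars are 95% intervals of the edgeR fit), with the values within replicate numbers 1 to 3 (blue circles) and 4 and 5 (red triangles). The intervals of Mrpl45, Mrpl27 and Mrpl1 end below 0, and those of the other 13 include 0.

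The size of this shift varied with the libraries left out. Untreated 1 held the highest level of 22 members and untreated 2 that of 33, so that 55 of the 71 peaked in these libraries. Without untreated 1 the median log2 fold change of the members was -0.027 with 47 below 0, and without untreated 2 it was -0.033 with 48 below 0. The medians of all genes in these fits were -0.0018 and -0.0020. Leaving out both was chosen because the members peak there, which by itself raises the fold changes, and it kept untreated 3, 4 and 5. In that fit 25 of the 71 lay below 0 (49.1% of all genes), the median was 0.028 and 0 members were lower at an unadjusted p of 0.05 (4.39% of all genes). With the split of the replicate numbers as a covariate, 60 lay below 0 and the median was -0.066. Without untreated 4 or 5 the median was -0.096 or -0.10. Without BT-11 2 or BT-11 4, the libraries with the most thalamus transcripts, it was -0.082 or -0.043. Without untreated 2 and 5, the libraries with choroid plexus transcripts, the median was -0.069 and 60 members lay below 0, with 2 lower at an unadjusted p of 0.05 (2.17% of all genes).

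The libraries numbered 4 and 5 stand apart from 1 to 3 in both groups in earlier results of these data. The labels name no batch, so this division is a description without a test. The members were lower in numbers 4 and 5. Their summed mean was 2310 CPM in untreated 1 to 3 and 2022 CPM in untreated 4 and 5. With BT-11 it was 2163 and 2022 CPM, and in both groups every library numbered 4 or 5 lay below every library numbered 1 to 3.

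The median log2 difference of numbers 4 and 5 from 1 to 3 was -0.18 over the members in untreated and -0.12 in BT-11 rats, while the medians of all genes were within 0.01 of 0. In untreated rats 64 of 71 members were lower on average (48.8% of all genes), and in BT-11 rats 59 were (48.6%). Numbers 4 and 5 lay entirely below 1 to 3 for 34 members in untreated rats (20.8% of all genes) and for 26 in BT-11 rats (14.5%). Without untreated 2 and 5 the untreated median was -0.14. In both groups at once full separation downward held for 15 members (5.85%), and the opposite held for 0 members (7.65%). The 15 were Mrpl4, Mrpl13, Mrpl14, Mrpl21, Mrpl23, Mrpl35, Mrpl37, Mrpl53, Mrps5, Mrps12, Mrps18b, Mrps21, Mrps22, Mrps24 and Mrps34.

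Mrpl23, which in ribosomes lies at the exit of the peptide tunnel, showed the largest median difference of this kind. It was at 21.2, 22.5 and 15.3 CPM in untreated 1 to 3 and at 14.1 and 13.6 CPM in untreated 4 and 5. With BT-11 it was at 16.1, 17.4 and 15.2 CPM in numbers 1 to 3 and at 12.9 and 11.6 CPM in numbers 4 and 5. All 4 libraries of numbers 4 and 5 were its lowest. The log2 differences were -0.47 and -0.39.

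Mrpl57, a mitochondria-specific large-subunit protein, was at 22.2, 23.9 and 20.9 CPM in untreated 1 to 3 and at 14.5 and 14.3 CPM in untreated 4 and 5. With BT-11 it was at 18.7, 20.96 and 18.5 CPM against 15.3 and 19.7 CPM, so its sets separated in untreated rats and overlapped in BT-11 rats. Mrps18c, of the small subunit, had log2 differences of -0.37 and -0.38. Those of Mrpl54 were -0.46 and -0.22, and those of Mrpl14, which lies at the interface of the subunits, were -0.39 and -0.27.

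A few members did not follow the others. Mrpl15, with a bacterial counterpart in the large subunit, was at 21.9, 23.9 and 25.7 CPM in untreated 1 to 3 and at 26.6 and 27.9 CPM in untreated 4 and 5. With BT-11 it was at 22.6, 24.2 and 25.4 CPM against 26.2 and 23.1 CPM. Its sets separated upward in untreated rats, with a log2 difference of 0.19, and overlapped in BT-11 rats, with 0.034. Mrpl49, Mrpl51, Mrpl19 and Mrps2 were the other members with the highest median differences. For Mrps2 the values were 0.085 in untreated and -0.032 in BT-11 rats.

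**Figure D3:**
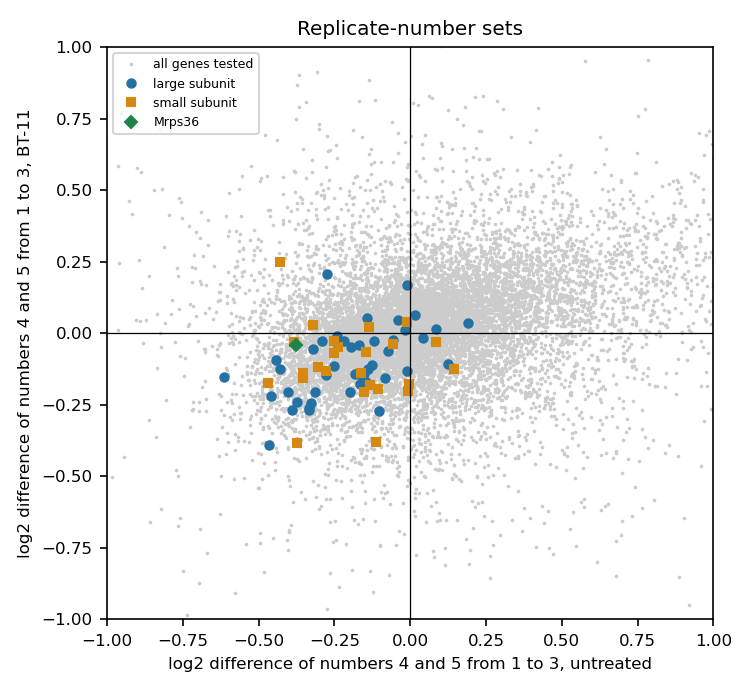
Log2 difference of replicate numbers 4 and 5 from 1 to 3 in untreated (horizontal axis) and BT-11 rats (vertical axis) for the members and for all genes tested (grey), of which 190 lie outside the axes. Most members sit in the lower left of the plot, and Mrps36 lies among them.

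Transcript length moved with this division. Among all genes, the median log2 difference of numbers 4 and 5 from 1 to 3 in untreated rats was -0.17 in the shortest of 4 equal groups by transcript length. It was -0.051, 0.035 and 0.18 in the next groups. With BT-11 the medians of the 4 groups were -0.067, -0.0086, 0.021 and 0.066. The members are short, with lengths from 477 to 2402 bases, and 56 of 71 belonged to the shortest group, 10 to the second, 5 to the third and 0 to the longest. Within the shortest group the members had a median of -0.25 in untreated and -0.12 in BT-11 rats. After the trend with length was subtracted, their medians were -0.051 and -0.040.

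For the BT-11 comparison the same 4 groups had median log2 fold changes of -0.045, -0.014, 0.0031 and 0.031 over all genes, and the members of the shortest group had -0.10. With the trend subtracted, the median over the members was -0.042 in place of -0.069. The part of RNA quality or fragment selection in the length trend was not tested.

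**Figure D4:**
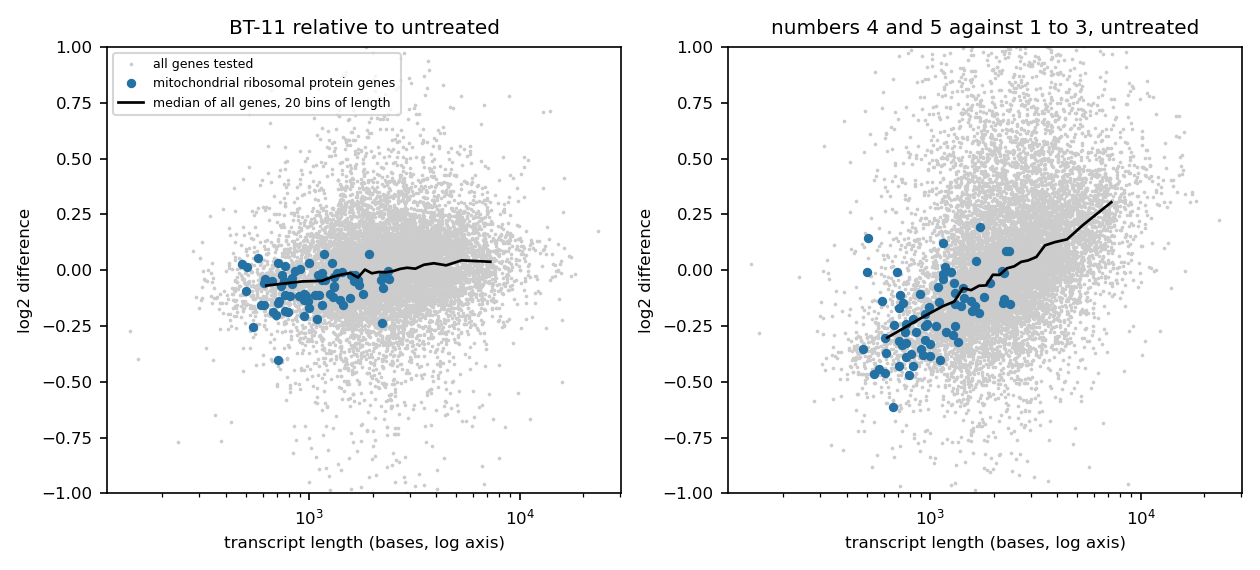
Log2 difference against transcript length (log axis) for all genes tested (grey) and the members (blue), for BT-11 relative to untreated (left) and for numbers 4 and 5 against 1 to 3 in untreated rats (right). The black line is the median of all genes in 20 bins of length. It rises with length in both panels, and the members lie at the short end; 83 and 167 genes are outside the axes.

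The BT-11 difference was then read within each set of numbers. Within numbers 1 to 3 (3 against 3 rats), 61 of 71 members lay below 0 (49.7% of all genes), with a median of -0.10. Lower at an unadjusted p of 0.05 were 4 members, Mrps24, Mrps28, Mrpl45 and Mrpl54 (2.75% of all genes), and 0 passed an adjusted p of 0.05 in edgeR, as for all genes (0.0%). Within numbers 4 and 5 (2 against 2 rats), 38 members lay below 0 (48.7%) and the median was -0.017. There edgeR called 0 of 71 members at an adjusted p of 0.05, against 479 of all genes (4.02%). At an unadjusted p of 0.05, Mrps7, Mrpl34, Mrpl36 and Mrpl48 were higher (8.76% of all genes) and Mrpl45, Mrpl27 and Mrpl46 lower (9.79%). Mrpl45 was the member with an unadjusted p under 0.05 and the same direction in both sets, at -0.23 in each. Its adjusted p in edgeR were 0.597 in numbers 1 to 3 and 0.207 in numbers 4 and 5. It had the smallest p over these same libraries, so its values in the sets are no separate support.

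Whether the BT-11 difference itself differed between the sets was fitted as an interaction. Because the division came from earlier results of these data, its p-values are given as a description. No member passed an adjusted p of 0.05 in edgeR, nor did any gene (0.0%), and the smallest adjusted p of a member was 0.392. Of the members, 54 had an interaction above 0, meaning a higher BT-11 value in numbers 4 and 5, where 49.4% of all genes lay below 0. At an unadjusted p of 0.05, 6 members were higher and 0 lower, against 4.04% and 6.24% of all genes. They were Mrpl36, Mrps7, Mrpl57, Mrpl34, Mrpl48 and Mrps31. The count of 6 was 10 without untreated 3, 3 without untreated 1 or BT-11 3, 2 without untreated 5 and 1 without BT-11 5. Without untreated 3, 251 of all genes passed an adjusted p of 0.05 in edgeR, against 0 with all libraries. Shares of all genes at the unadjusted p are not given for these fits, so their counts are not read as a result about the members. Without untreated 2 and 5, an alternative chosen after the values were seen, it was 0 (2.51% of all genes), with 43 members above 0.

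Mrps7, which in bacteria binds the ribosomal RNA in the head of the small subunit, was at 52.0, 52.3 and 47.9 CPM in untreated 1 to 3 and at 37.9 and 39.6 CPM in untreated 4 and 5. With BT-11 it was at 50.9, 48.5 and 44.1 CPM in numbers 1 to 3 and at 48.9 and 44.7 CPM in numbers 4 and 5. Untreated 4 and 5 thus lay below all other libraries. Its interaction was 0.37 ± 0.129 (SE; adjusted p = 0.398 in edgeR). Mrpl36, a small zinc-binding protein of the large subunit in bacteria, was at 24.2, 29.4, 23.1, 22.6 and 19.4 CPM in untreated and 23.6, 22.3, 21.5, 25.1 and 26.8 CPM in BT-11 rats. Its interaction of 0.51 ± 0.173 had the smallest p of the members (adjusted p = 0.392 in edgeR).

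Myelin markers differed between the sets in untreated rats, where their sum was 16379, 11608 and 12956 CPM in numbers 1 to 3 and 8192 and 9191 CPM in numbers 4 and 5. In BT-11 rats it was 13830, 15457 and 8595 CPM against 13594 and 14687 CPM, so the sets overlapped, with BT-11 3 the lowest. The part of cell composition in the values of the members was not tested.

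Other genes of mitochondrial translation were followed beside the members. Of the mitoribosomal proteins with other symbols, 5 of 5 lay below 0 with BT-11 (median log2 fold change -0.078), with 0 at an unadjusted p of 0.05. Gadd45gip1, a large-subunit protein, was at 36.7 to 44.6 CPM in untreated and 33.2 to 40.9 CPM in BT-11 rats. Ptcd3, a small-subunit protein, was at 60.4 to 74.9 and 58.3 to 67.8 CPM. These ranges overlapped. The median log2 difference of numbers 4 and 5 from 1 to 3 over the 5 genes was -0.24 in untreated rats, with 5 lower, and -0.11 in BT-11 rats, with 3 lower. Ptcd3 was at 0.059 in BT-11 rats.

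Of 25 genes for assembly of the mitoribosome and transcription of the mitochondrial genome, 17 lay below 0 with BT-11 (median -0.041) and 0 had an unadjusted p under 0.05. Those with the smallest p were Mterf3, known to act in biogenesis of the large subunit (-0.17), and Polrmt, the mitochondrial RNA polymerase (-0.13). Of 14 translation factors 8 lay below 0, with a median of -0.0041. Tufm, the mitochondrial elongation factor Tu, was at 72.6, 75.0, 63.3, 61.9 and 71.0 CPM in untreated and 65.4, 61.3, 61.6, 59.2 and 61.0 CPM in BT-11 rats. BT-11 1 and untreated 3 and 4 overlapped, and the log2 fold change was -0.17 ± 0.071 (adjusted p = 0.52 in edgeR). Mrrf, the ribosome recycling factor, stood at 0.13 ± 0.065 (adjusted p = 0.58 in edgeR).

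Of 17 mitochondrial aminoacyl-tRNA synthetases 10 lay above 0 with BT-11, with a median of 0.051. Tars2, which charges threonine tRNA, was at 36.6 to 40.3 CPM in untreated and 30.2 to 37.1 CPM in BT-11 rats, with a log2 fold change of -0.18 ± 0.070 (adjusted p = 0.499 in edgeR). Aars2, which charges alanine tRNA, was at 9.05 to 12.2 and 10.6 to 14.2 CPM, with 0.25 ± 0.110 (adjusted p = 0.541 in edgeR). Both pairs of ranges overlapped, and 0 genes of these lists passed an adjusted p of 0.05.

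The summed levels of these groups differed in how they followed the library number. Synthetases summed to 272 to 288 CPM in untreated and 279 to 301 CPM in BT-11 rats, with means of 281.5 CPM in untreated 1 to 3 and 281.1 CPM in untreated 4 and 5. Their transcripts are longer, with a median of 1967 bases against 996 for the members. Translation factors had means of 472 and 467 CPM in the untreated sets, and assembly genes of 614 and 587 CPM. Subunits of oxidative phosphorylation (77 genes, median length 638 bases) had means of 12181 and 10668 CPM in the untreated and 11098 and 10321 CPM in the BT-11 sets. Cytosolic ribosomal proteins (82 genes, median length 583 bases) had means of 16134 and 12598 CPM in the untreated and 14900 and 12853 CPM in the BT-11 sets.

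Per gene, the median log2 difference of numbers 4 and 5 from 1 to 3 in untreated rats was -0.37 for cytosolic ribosomal proteins, -0.28 for oxidative phosphorylation and -0.18 for the members. It was -0.11 for assembly genes, -0.00067 for translation factors and 0.048 for synthetases. With BT-11 the medians were -0.21, -0.14, -0.12, 0.0027, 0.029 and 0.081 in the same order of groups. The order of the groups followed their median transcript length except for the longest, since translation factors were the longest at 2030 bases. Numbers 4 and 5 lay entirely below 1 to 3 in both groups for 61 of 80 tested cytosolic ribosomal proteins, 40 of 77 oxidative phosphorylation genes and 15 of 71 members, against 5.85% of all genes.

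**Figure D5:**
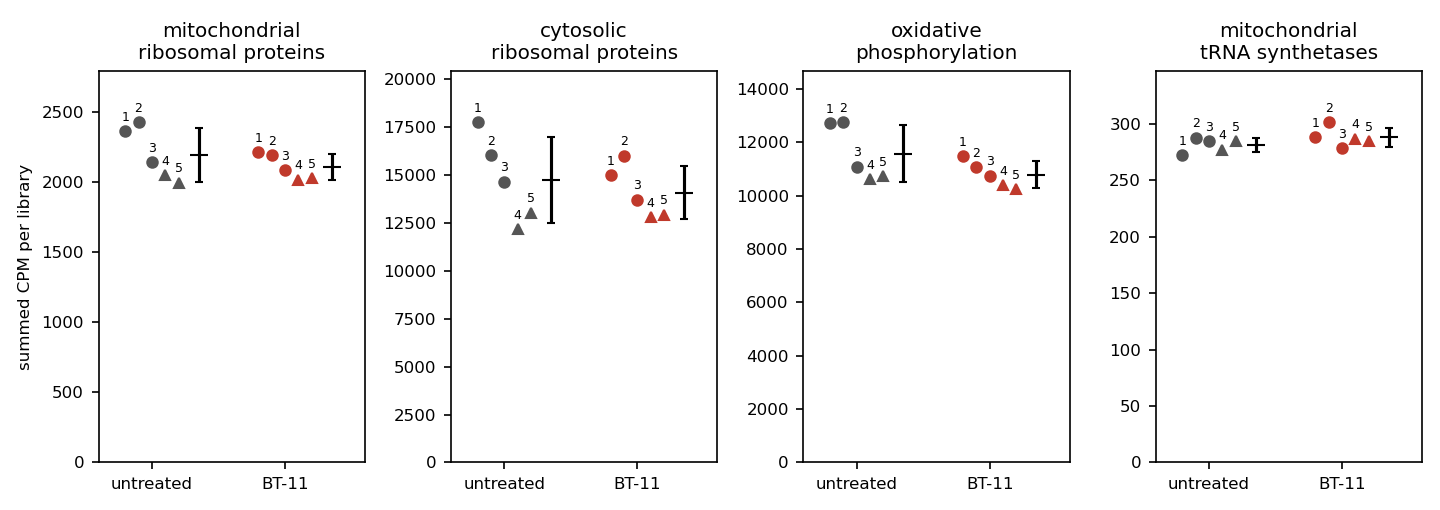
Summed CPM per library of the members, cytosolic ribosomal proteins, oxidative phosphorylation subunits and mitochondrial tRNA synthetases in untreated (grey) and BT-11 rats (red), labelled by replicate number, with triangles for numbers 4 and 5 and bars for mean ± SD (n = 5). The axes start at 0. The members run from 1995 to 2427 CPM in untreated and from 2018 to 2214 CPM in BT-11 rats, and numbers 4 and 5 are the lowest of their group in the first 3 panels.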

How the data were processed

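Messenger RNA libraries, made with a strand-specific kit per the labels' protocols, were sequenced as single-end reads. Build rn6 and the tools STAR 2.7.9a, bcl2fastq 2.19.1.403, DESeq2 and Partek are listed in the submitters' processing notes with no role. For the counting program, strand setting and annotation, nothing is given in the sources used here. Genes that overlap on opposite strands may share reads. Deposited by the authors were estimated counts per gene model (14834 lines, 83.4% of values whole within 1e-06) with a transcript length, and CPM per column total with an added offset of 1e-04. Coordinates are the deposited ones; it was not settled if their starts count from 0 or 1.

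Estimated counts were summed per symbol and rounded. The length of a symbol is the mean of its deposited models, weighted by their counts. CPM in the text were computed from these sums and the column totals. The 11771 genes kept by edgeR's filter by group (1915 left out) were fitted in edgeR 4.0.16 (R 4.3.3) by the robust quasi-likelihood test with TMM normalization, giving a biological coefficient of variation of 0.14. P-values are two-sided and Benjamini-Hochberg adjusted over all genes tested. The step was tested on simulated data. Each library is 1 rat, so tests measure the spread between rats, and reads carry no molecular identifiers.

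Differences between number sets are differences of mean log2(CPM + 0.5); their length trend is a lowess curve over 0.3 of all genes. Promoters came from the RefSeq table in GRCr8, and none of their coordinates were set against rn6. Alternatives were DESeq2 1.42.0, limma-voom (limma 3.58.1), other normalizations and filters, the authors' CPM on a log2 scale, untouched lines, 1 surrogate variable (sva 3.50.0), covariates and omitted libraries.

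The members, lists and division by number were chosen with earlier results of these data known. Named were the 8 members with the smallest p in each direction, those with separate groups (0), the 5 with the largest and the 5 with the smallest difference of numbers 4 and 5, the 3 highest and 3 lowest per kilobase, and up to 2 genes of each pathway list. Members named for the interaction, for lines at separate places, or for numbers 4 and 5 below 1 to 3 in both groups were chosen after their values were seen, as were Mrpl3, Mrpl44, Mrps11 and Mrps36.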

Additional observations from a re-analysis of the deposited data

How the results depend on the processing

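No member passed an adjusted p of 0.05 in any of the alternatives run. Over all genes, edgeR's 0 calls became 36 with DESeq2, 479 within numbers 4 and 5, and 0 to 62 with 1 library left out (62 without untreated 3). Genes with an unadjusted p under 0.05 went from 1070 to 2211 within numbers 4 and 5 and 536 without untreated 2 and 5. With 1 library left out, they ran from 751 to 1476. Members lower at that p were 3 with all libraries (5.05% of all genes). They were 6 with the number set as a covariate (6.16%) and 0 without untreated 1 and 2 (4.39%). With 1 library left out they were 1 to 6, given without a share of all genes and not read as a result. Members higher at that p went from 0 (4.04%) to 4 within numbers 4 and 5 (8.76%). The 61 members below 0 became 38 within numbers 4 and 5 and 25 without untreated 1 and 2. The median log2 fold change of the members ran from -0.10 to -0.027 with 1 library left out, and was -0.020 with 1 surrogate variable. With the length trend subtracted, the medians of the number sets were -0.051 and -0.040. The interaction's 6 members (4.04% of all genes) were 0 without untreated 2 and 5 (2.51%). With 1 library left out they were 1 to 10, given without a share of all genes and not read as a result. The interaction's 0 calls over all genes at an adjusted p of 0.05 were 0 to 251 with 1 library left out.

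Among the 16 members named by their p with BT-11, log2 fold changes turned sign as follows, with unadjusted p of at least 0.314. Within numbers 4 and 5, Mrps28 was at 0.10. Within numbers 1 to 3, Mrpl34 was at -0.072, Mrpl48 at -0.064, Mrpl43 at -0.015, Mrps7 at -0.096, Mrps21 at -0.047 and Mrpl32 at -0.069. Without untreated 2 and 5, Mrpl34 was at -0.0012, Mrpl48 at -0.018, Mrps21 at -0.020 and Mrpl32 at -0.065. With 1 library left out, the lowest and highest values were -0.018 and 0.13 for Mrpl34, -0.029 and 0.0898 for Mrpl48, -0.0091 and 0.11 for Mrpl43, -0.033 and 0.095 for Mrps7, -0.025 and 0.1 for Mrps21 and -0.048 and 0.091 for Mrpl32. Of the other 24 named members, 4 turned sign within numbers 1 to 3, 12 within numbers 4 and 5 and 4 without untreated 2 and 5; within numbers 4 and 5, Mrpl36 was at 0.31, Mrpl57 at 0.29 and Mrps31 at 0.23. The causes were not tested.

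In the labels, same-numbered libraries share only a number. The correlations of their deviations from the group means were 0.221, 0.157, 0.155, 0.169 and 0.042 for numbers 1 to 5. For libraries with different numbers they ran from -0.269 (untreated 2 with BT-11 5) to 0.229 (untreated 2 with BT-11 1). Whether the numbers pair the libraries was not tested. With the replicate number as a block, 0 members passed, 4 were lower at an unadjusted p of 0.05 and the median was -0.064. In that fit 1320 of all genes had an unadjusted p under 0.05 in either direction, against 1070 without the block. No share of all genes in the lower direction is given for it, so the 4 are not read as a result about the members. Depth limits Mrps28, at 16 counts in its lowest library. Intervals cover counting error and the spread between libraries, in which differences between rats and in amplification cannot be told apart.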
